A study of Mus musculus with 12 samples.

Results

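The 10 mouse genes described here take part in the recognition, tethering and uptake of dying cells. They were the TAM receptor tyrosine kinases Axl, Mertk and Tyro3, the bridging ligands Gas6, Pros1 and Mfge8, and the scavenger receptors Cd36, Msr1, Marco and Stab1. They were chosen by name, and each probe whose transcript accession belonged to 1 of these genes was taken, which gave 12 probes on one array design and 14 on the other. All 10 genes were kept on both designs, among 27928 genes or accessions kept on the first and 30525 on the second.

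A dying cell exposes phosphatidylserine on its outer surface. Gas6 and protein S (the product of Pros1) bind that lipid and join it to TAM receptors, of which Gas6 binds each and protein S only some. Mfge8 joins the lipid to integrins that contain the αv chain. Scavenger receptors bind modified lipids and other polyanionic ligands as well as dying cells, and microglia, the resident macrophages of the brain, use both systems to clear debris.

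Expression was measured on single-colour microarrays in microglia of male mice aged 8 weeks, enriched from brain by magnetic sorting for CX3CR1. The mice were of 3 kinds, ZEB1-overexpression, ZEB1-knock down and wild type, each studied before and after tMCAO (transient middle cerebral artery occlusion, a model of ischaemic stroke with reperfusion), with 2 samples in each of the 6 groups. ZEB1 is a zinc finger transcription factor. The promoter or cell type that drives the overexpression or the knock-down, the time after tMCAO and any pooling of animals are not given in the sources used here. Nothing in the labels says that the 2 samples of a group are different animals. The p-values below therefore rest on the spread between samples, and that spread may be technical.

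A level is the log2 signal of a probe minus the 75th percentile of its array, so a level of 0 equals that percentile and a difference of 1 is a doubling. Levels of different probes cannot be set against each other. One slide, with 4 arrays of this series, held the wild-type and overexpression samples taken after tMCAO. The other 4 groups, ZEB1 knock-down after tMCAO and all 3 genotypes before it, were on a slide of 8. Only groups of the same slide were tested against each other (limma, adjusted p-values by Benjamini-Hochberg over all genes, threshold 0.05), and 5 such comparisons were made. The main fit leaves out spots marked by the scanner software, either for uneven signal or as outliers. That removed many spots of these genes. Of the 20 spots a group had for the 10 genes, 11 were marked in wild type and 10 in ZEB1 overexpression after tMCAO. Likewise 11 were marked in knock-down after tMCAO, and 8, 1 and 0 in overexpression, wild type and knock-down before it. For that reason a fit with the marked spots kept is given beside it.

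Several features of the arrays bear on the values. The share of marked spots was between 18.2% and 23.7% on the ZEB1 knock-down arrays after tMCAO and the ZEB1 overexpression arrays before it, which lay in columns 1 and 2 of the 8-array slide. It was between 1.03% and 3.28% on the remaining arrays of that slide, in columns 3 and 4, so position and group cannot be told apart there. On the 4-array slide it ran from 7.49% to 21.7%. There both wild-type arrays lay in row 1 and both overexpression arrays in row 2, so slide row and genotype cannot be told apart. On the 8-array slide knock-down after tMCAO and wild type before it lay in row 1. Overexpression and knock-down before tMCAO lay in row 2. Zeb1 itself did not show the labelled manipulation: before tMCAO its level differed by 0.13 ± 0.27 (SE, n = 2 and 2) between knock-down and wild type (limma, adjusted p = 0.954). The difference between overexpression and wild type before tMCAO was 0.22 ± 0.33 (SE, n = 1 and 2; limma, adjusted p = 0.833). The sources used here do not say whether the Zeb1 probes lie in the altered stretch, and genotypes are named by their labels throughout. All 10 microglia markers, Cx3cr1 among them, were well above background on each of the 12 arrays, but so were all 8 neuron, all 8 oligodendrocyte and all 8 astrocyte markers.

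The promoters of the members that passed a test in at least 1 comparison and had an entry are shown. Of these members Marco alone passed between genotypes, in the main fit or with the marked spots kept. The others passed in knock-down cells after against before tMCAO, where the genotype was the same. A part of ZEB1 binding in these differences was not tested. The promoters are the 250 bases before the RefSeq start (build GRCm38.p6), each 5′ to 3′ on the strand of its gene, with motif matches in capitals. Axl lies on chr7:25788734-25788983, minus strand; Pros1 on chr16:62854057-62854306, plus strand; Cd36 on chr5:17835897-17836146, minus strand; Stab1 on chr14:31168642-31168891, minus strand; Marco on chr1:120505025-120505274, minus strand.
Axl: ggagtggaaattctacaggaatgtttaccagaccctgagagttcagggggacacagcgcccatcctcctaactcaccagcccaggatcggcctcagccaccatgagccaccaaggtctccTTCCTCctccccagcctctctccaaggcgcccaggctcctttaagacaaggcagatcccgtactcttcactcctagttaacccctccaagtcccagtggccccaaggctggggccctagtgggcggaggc
Pros1: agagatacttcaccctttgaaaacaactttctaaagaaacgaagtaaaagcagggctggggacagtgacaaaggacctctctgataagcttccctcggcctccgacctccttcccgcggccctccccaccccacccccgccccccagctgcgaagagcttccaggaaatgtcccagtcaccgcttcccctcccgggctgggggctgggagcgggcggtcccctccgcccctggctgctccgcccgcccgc
Cd36: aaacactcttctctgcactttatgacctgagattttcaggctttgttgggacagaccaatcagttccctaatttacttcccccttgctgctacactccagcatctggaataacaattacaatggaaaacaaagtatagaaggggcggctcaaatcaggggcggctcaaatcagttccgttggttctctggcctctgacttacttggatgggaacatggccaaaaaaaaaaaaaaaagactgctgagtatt
Stab1: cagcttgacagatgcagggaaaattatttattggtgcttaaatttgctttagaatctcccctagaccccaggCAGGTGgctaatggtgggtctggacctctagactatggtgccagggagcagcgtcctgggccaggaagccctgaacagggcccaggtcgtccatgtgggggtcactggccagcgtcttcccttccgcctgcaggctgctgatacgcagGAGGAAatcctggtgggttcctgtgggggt
Marco: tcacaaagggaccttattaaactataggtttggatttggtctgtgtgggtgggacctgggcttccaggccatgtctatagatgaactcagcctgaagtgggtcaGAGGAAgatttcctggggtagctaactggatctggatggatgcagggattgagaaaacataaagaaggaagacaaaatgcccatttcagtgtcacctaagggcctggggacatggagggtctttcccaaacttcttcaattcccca

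Motifs were searched on both strands in the promoters of the 9 members with an entry, and no matches overlapped. CACCTG, the E-box bound by ZEB1, was found in 1 of the 9, Stab1, with its first base 178 bases before the start and on the opposite strand. Of all 32851 promoters of this length, 17.2% held it. GAGGAA, the core of the sites bound by the macrophage factor PU.1, was found in 4 of the 9, against 23.3% of all promoters. Its matches began 130 bases before the start in Axl and 220 in Mfge8, both on the opposite strand, and 146 in Marco and 30 in Stab1 on the strand of the gene. TGANTCA, the AP-1 site, was in 0 of the 9 and in 6.75% of all promoters. GAAA followed by any 2 bases and GAAA, the core of the interferon-stimulated response element, was in 0 of the 9 and in 2.98% of all promoters. A match describes letters only, and a missing match says that the letters were not in this window.

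**Figure D1:**
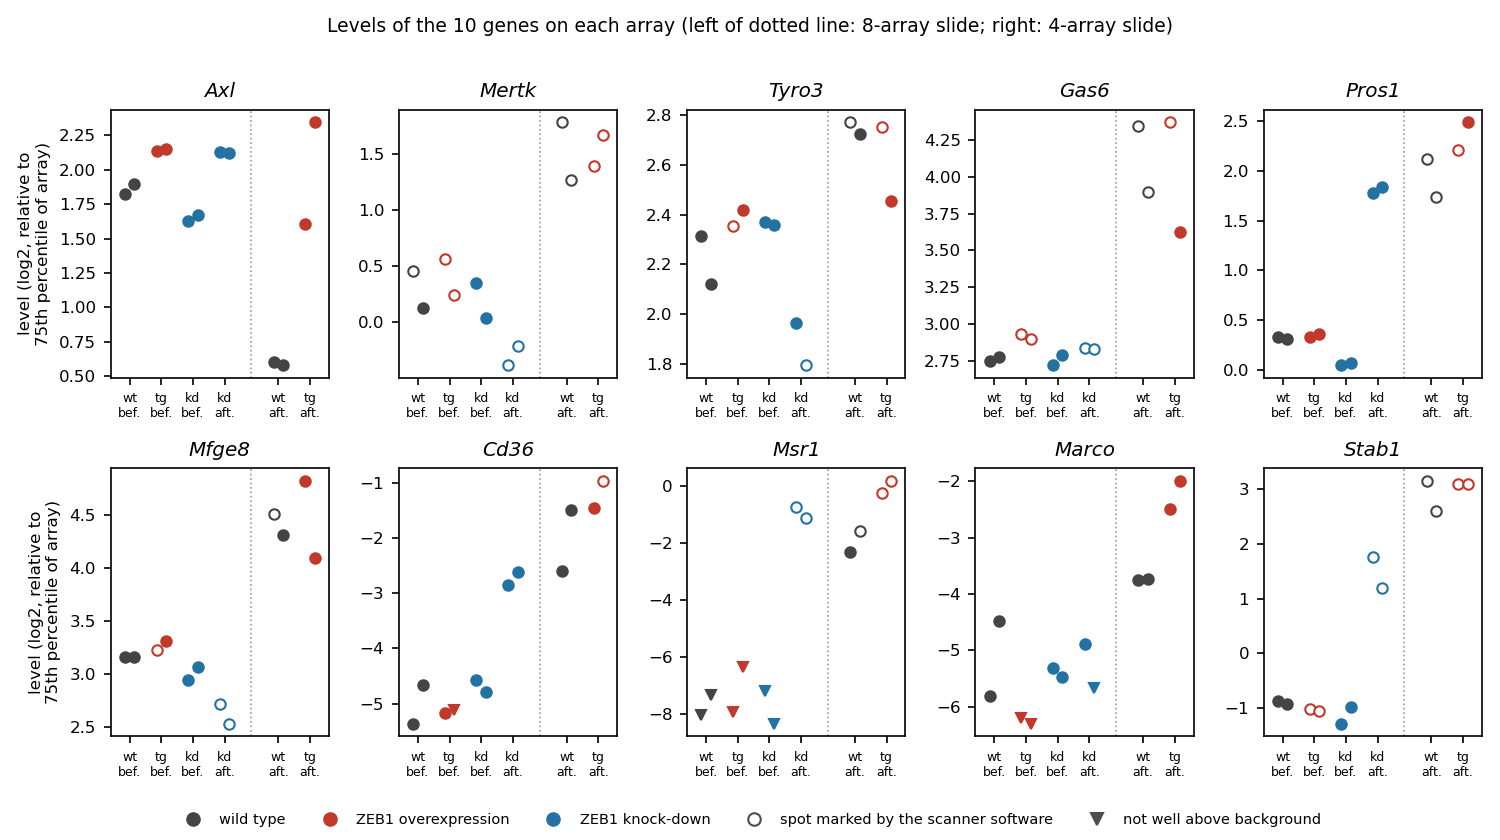
Level of each of the 10 genes on each array (log2 signal minus that of the array's 75th percentile), for the probe used on each slide; wt stands for wild type, tg for ZEB1 overexpression and kd for its knock-down, before (bef.) or after (aft.) tMCAO. Open circles are spots marked by the scanner software, triangles are spots not well above background, and the 4-array slide is to the right of the dotted line. Msr1, Stab1, Pros1 and Cd36 lie higher on the ZEB1 knock-down arrays after tMCAO than on any array before it.

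The first comparison asked how cells labelled ZEB1 knock-down differed after tMCAO from before it. Pros1, Cd36 and Axl rose, and with the marked spots kept Msr1 and Stab1 rose as well while Axl missed the threshold. No member fell in either fit. In the main fit 5 of the 10 members could be tested and 3 were called higher, where 11.1% of the 24646 genes tested were called higher and 7.03% lower. With the marked spots kept all 10 were tested and 4 were called higher, where 10.1% of 30525 genes were called higher and 6.47% lower. The median difference over the 5 tested members was 0.48, and over all genes 0.04. Over all 10 members in the fit with marked spots it was 0.29, again against 0.04.

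Among the TAM receptors, Axl, the member most often linked to inflammatory states, had levels of 1.63 and 1.67 before tMCAO and 2.13 and 2.12 after it. The 2 groups did not overlap, and each pair lay close together. The difference was 0.48 ± 0.11 (SE, n = 2 and 2), a 1.39-fold rise (limma, adjusted p = 0.0391). The same difference gave an adjusted p of 0.0563 with the marked spots kept, and with the replicate numbers as a block 0.0516. Leaving out either array of either group gave between 0.0779 and 0.128. A second, dimmer Axl probe differed by 0.97 ± 0.21 (SE, n = 2 and 2; limma on every probe, adjusted p = 0.0298).

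Mertk, the receptor that macrophages use in steady clearance, had levels of 0.35 and 0.03 before tMCAO. After it both spots were marked, at -0.39 and -0.21. The levels after tMCAO were the lower ones and did not overlap those before, but the difference of -0.49 ± 0.21 (SE, n = 2 and 2) missed the threshold (limma with marked spots kept, adjusted p = 0.151).

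Tyro3, the TAM receptor best known from neurons, had levels of 2.37 and 2.36 before tMCAO, and of 1.96 and, on a marked spot, 1.79 after it. The levels after tMCAO were the lower pair. The difference with the marked spots kept was -0.49 ± 0.15 (SE, n = 2 and 2; limma, adjusted p = 0.0723). It passed the threshold where arrays were centred on their median with the marked spots kept, at -0.59 (limma, adjusted p = 0.0456); over all settings tried the adjusted p ran from 0.0456 to 0.376. Of the 3 TAM receptors, the rise of Axl alone passed the main test, and Mertk and Tyro3 had lower measured levels after tMCAO.

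Of the bridging ligands, Pros1, which encodes protein S, had levels of 0.04 and 0.07 before tMCAO and 1.78 and 1.84 after it. The pairs lay far apart relative to the spread within each. The difference was 1.75 ± 0.11 (SE, n = 2 and 2), a 3.37-fold rise (limma, adjusted p = 0.00239). A second, dimmer Pros1 probe rose by 2.55 ± 0.21 (SE, n = 2 and 2; limma on every probe, adjusted p = 0.00347). Over the 18 settings computed for Pros1 the adjusted p stayed between 4.99e-05 and 0.0282.

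Gas6, the ligand that binds all 3 TAM receptors, showed no such difference. It had levels of 2.72 and 2.79 before tMCAO and of 2.84 and 2.83, on marked spots, after it. The difference was 0.08 ± 0.13 (SE, n = 2 and 2; limma with marked spots kept, adjusted p = 0.707; 95% interval -0.24 to 0.40), and it was -0.03 under median centring with the marked spots kept.

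Mfge8, the secreted bridge to αv integrins, had levels of 2.94 and 3.07 before tMCAO, and of 2.72 and 2.53, on marked spots, after it. The levels after tMCAO were the lower pair, without overlap. The difference of -0.38 ± 0.15 (SE, n = 2 and 2) missed the threshold (limma with marked spots kept, adjusted p = 0.123).

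The scavenger receptors held the widest differences. Msr1, scavenger receptor A, was not well above background on any array before tMCAO in any genotype. After tMCAO in the knock-down cells it was well above background on both arrays, at -0.72 and -1.11, on spots marked by the software. Taken against the lowest signal that counted as well above background, Msr1 was at least 53.7-fold higher after tMCAO, and by its second probe at least 36.6-fold higher. That bound compares the mean of the bright arrays with, per dim array, the higher of that lowest signal and the signal of the probe itself. The fit with marked spots kept gave an adjusted p of 0.00333 (limma, n = 2 and 2), with measured means of -0.92 and -7.76. In the main fit Msr1 had no value after tMCAO.

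Stab1, stabilin 1, a receptor of phosphatidylserine and of several extracellular ligands, had levels of -1.29 and -0.98 before tMCAO. After it the levels were 1.77 and 1.20, both on marked spots, above all 6 levels before tMCAO on the same slide. The difference was 2.62 ± 0.22 (SE, n = 2 and 2), a 6.14-fold rise (limma with marked spots kept, adjusted p = 0.00311), and the main fit had no value after tMCAO.

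Cd36, the class B scavenger receptor that also carries fatty acids, had levels of -4.58 and -4.79 before tMCAO and -2.85 and -2.61 after it, with no marked spot among them. The pairs did not overlap. The difference was 1.96 ± 0.25 (SE, n = 2 and 2), a 3.88-fold rise (limma, adjusted p = 0.00801). Without replicate 2 before tMCAO the adjusted p was 0.0554, and without that array the count of members called fell to 1, Pros1.

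Marco, a class A receptor of macrophages that binds bacteria and particles, had levels of -5.31 and -5.47 before tMCAO. After it they were -4.89 and -5.67, the latter not well above background, so the pairs overlapped. The difference was 0.11 ± 0.46 (SE, n = 2 and 2; limma, adjusted p = 0.881). It turned to -0.34 under quantile normalization and to -0.28 without replicate 1 after tMCAO.

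**Figure D2:**
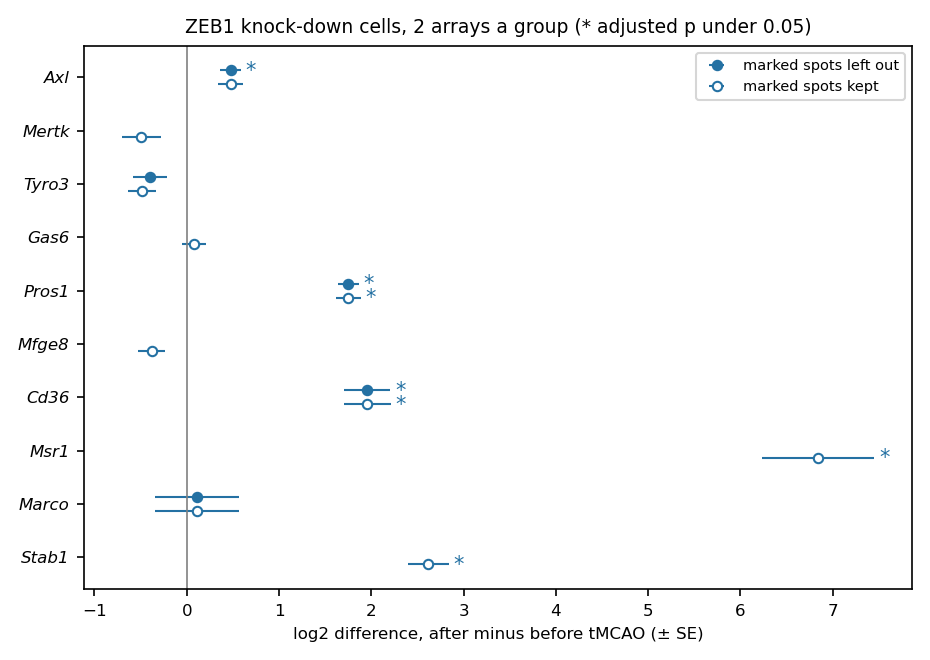
Difference in level of each gene after minus before tMCAO in cells labelled ZEB1 knock-down (log2, points ± SE, 2 arrays a group), with the marked spots left out (filled) or kept (open); an asterisk marks an adjusted p under 0.05. Msr1, Stab1, Cd36 and Pros1 stand to the right, and 5 genes, Msr1 and Stab1 among them, have only an open point because both spots after tMCAO were marked.

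The arrays after tMCAO shared columns 1 and 2 of the slide, and their high share of marked spots, with the ZEB1 overexpression arrays before tMCAO. On the latter Pros1 was at 0.33 and 0.36, Stab1 at -1.01 and -1.05 on marked spots, and Cd36 at -5.16 and -5.11. Msr1 was not well above background on either. Axl had levels of 2.14 and 2.15 on the overexpression arrays, and of 2.13 and 2.12 on the knock-down arrays after tMCAO. The overexpression and knock-down arrays in these columns also differ in genotype, in tMCAO and in slide row. The part of array position in the levels of these genes was not tested.

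Markers of other cell types moved in the same comparison. The signal summed over the 8 border macrophage markers, in multiples of the 75th percentile of the array, was 2.32 and 2.65 before tMCAO and 14.4 and 14.6 after it. All 6 of these markers that were tested rose in the main fit and all 8 with the marked spots kept, Mrc1 and Cd163 among them, which are scavenger receptors themselves. The 8 monocyte markers summed to 9.31 and 9.57 before and 24.2 and 20.7 after tMCAO, and 4 of 8 rose in the main fit. The 10 microglia markers summed to 22.7 and 23.9 before and 38.2 and 30.7 after it, and 2 of the 5 tested rose, Cx3cr1 by 1.41 ± 0.33 and Olfml3 by 1.94 ± 0.36 (SE, n = 2 and 2; limma, adjusted p = 0.0362 and 0.0203). Of those 5 microglia markers 4 had a difference above 0, and the lowest difference was -1.60. With the marked spots kept 6 of 10 rose and 8 had a difference above 0. Siglech was lower after tMCAO, at 1.32 and 0.58 against 1.96 and 2.41 before it. The 11 endothelial and mural markers summed to 14.3 and 14.9 before and 20.7 and 20.9 after tMCAO, and 4 of the 8 tested rose. Of the other lists, 1 of 6 neutrophil, 1 of 6 astrocyte and 1 of 2 oligodendrocyte markers tested rose. Among 7 lymphocyte markers 1 rose and 2 fell, and 1 of 2 neuron markers fell. None of 7 interferon-induced markers passed, with a sum of 8.38 and 7.13 before and 25.5 and 9.92 after tMCAO. In bulk samples such as these, fewer or more cells of a type and less or more RNA per cell cannot be told apart, and the part of these cell types in the rises of Msr1, Stab1, Cd36 and Pros1 was not tested.

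**Figure D3:**
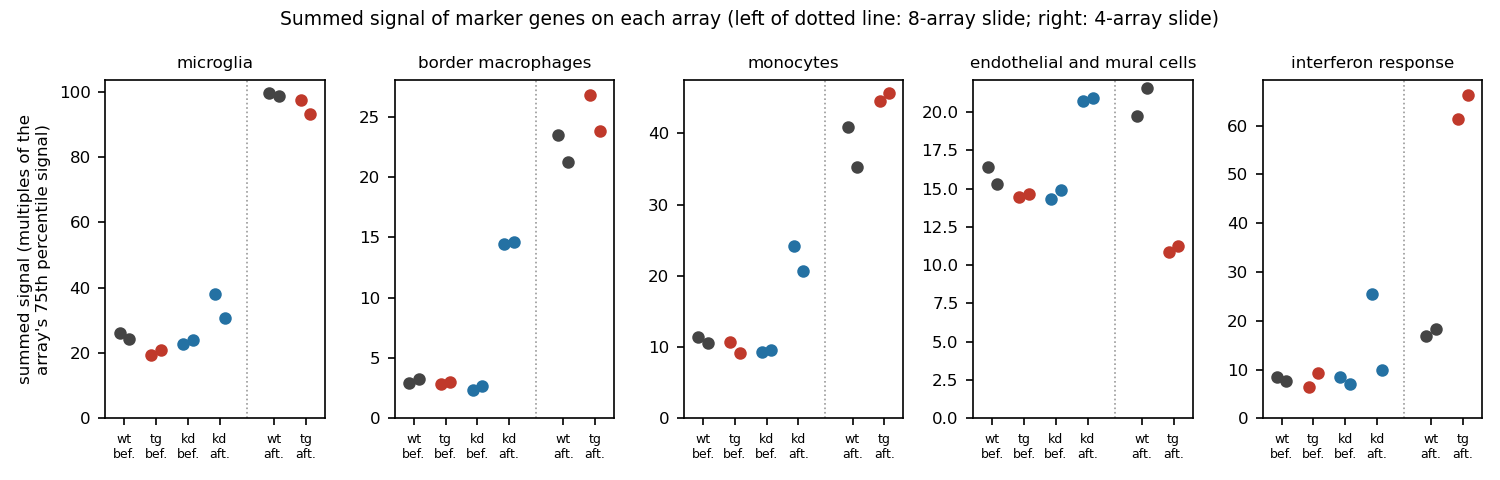
Summed signal of 5 marker lists on each array, in multiples of the 75th percentile signal of that array, with groups named as in the plot of levels and the 4-array slide to the right of the dotted line. Border macrophage and monocyte markers are higher on both ZEB1 knock-down arrays after tMCAO than on any array before it, and the interferon markers stand at 61.4 and 66.3 on the ZEB1 overexpression arrays after tMCAO.

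Other genes of the pathway were counted in the knock-down cells after tMCAO, where 11.1% of all genes were called higher in the main fit. Of 13 further receptors for apoptotic cells tested, 5 rose and 0 fell, 9 had a difference above 0, and the lowest difference was -1.99. They were Cd300lf, which binds phosphatidylserine, by 2.67 ± 0.13, the C-type lectin-like receptor Cd93 by 2.05 ± 0.16, and Itgb3 by 1.62 ± 0.31 (SE, n = 2 and 2). Trem2, the lipid receptor of microglia, rose by 1.49 ± 0.20, and Itgb5 by 0.82 ± 0.17 (SE, n = 2 and 2). Itgb3 and Itgb5 encode chains that pair with αv in the receptors of Mfge8. The adjusted p-values of these 5 in limma lay between 0.00210 and 0.0292, and the median over the 13 was 0.82.

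Among further scavenger receptors 4 of 8 tested rose. Cd5l, a secreted scavenger protein of macrophages, was at -0.19 on the single unmarked array after tMCAO and not well above background before it. It was at least 164-fold higher with the marked spot kept (measured means 0.69 and -7.20; limma with marked spots kept, adjusted p = 0.00272). Cxcl16, a chemokine that also binds oxidised lipoprotein, rose by 3.09 ± 0.24 (SE, n = 1 and 2), Cd68 by 1.502 ± 0.158 and Cd163, the haemoglobin receptor, by 1.03 ± 0.22 (SE, n = 2 and 2; limma, largest adjusted p of the 3 0.0368). The mannose receptor Mrc1 rose with the marked spots kept, by 2.43 ± 0.21.

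Other bridging molecules and signals gave 2 rises among the 3 genes tested, the phosphatidylserine-binding annexins Anxa1 (1.48 ± 0.23) and Anxa5 (0.83 ± 0.15). In the fit with marked spots 3 of 9 rose, among them Thbs1, which encodes thrombospondin 1, by 2.29 ± 0.30 (SE, n = 2 and 2; limma, adjusted p = 0.00814). Of the engulfment machinery 1 of 9 tested rose, a share near that of all genes, and 6 had a difference above 0, the lowest being -0.85. The 1 was Rac2, a small GTPase of blood cells, which rose by 2.76 ± 0.16 (SE, n = 1 and 2). In the fit with marked spots 3 of 15 rose, Rac2, Rac1 by 0.63 ± 0.14 and Dock2 by 1.64 ± 0.43 (SE, n = 2 and 2).

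Of the nuclear receptors and genes that respond to engulfed cells, 5 of 10 tested rose. These were the mitochondrial carrier Ucp2 by 2.02 ± 0.15, transglutaminase Tgm2 by 1.66 ± 0.16 (n = 1 and 2), and the liver X receptor Nr1h3 by 1.06 ± 0.16. The cholesterol exporter Abca1, a target of liver X receptors, rose by 0.98 ± 0.24 and Ppard by 0.58 ± 0.11 (SE, n = 2 and 2 unless stated; limma, largest adjusted p of the 5 0.0413). Of the feedback genes downstream of TAM receptors 1 of 7 rose, likewise near the share of all genes. It was Socs3, an inhibitor of cytokine signalling, with a rise of 2.67 ± 0.29 (SE, n = 1 and 2; limma, adjusted p = 0.0139). No gene of these 6 lists fell past the threshold in either fit, where 7.03% and 6.47% of all genes did.

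The second comparison set ZEB1 overexpression against wild type, both after tMCAO on the 4-array slide. Marco was higher in the overexpression cells in both fits, and Msr1 was higher with the marked spots kept. Of the 5 members tested in the main fit 1 was called higher, where 1.59% of the 22065 genes tested were called higher and 0.748% lower. With the marked spots kept 2 of 10 were called higher, where 1.95% of 27928 genes were called higher and 1.25% lower. No member was called lower in either fit. The median difference was 0.60 over the 5 tested members and -0.11 over all genes, and over all 10 members with the marked spots kept it was 0.32, against -0.10.

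Marco had levels of -3.75 and -3.74 in wild type and -2.48 and -1.99 with ZEB1 overexpression. The wild-type arrays lay close together and the groups did not overlap. The difference was 1.51 ± 0.27 (SE, n = 2 and 2), 2.84-fold (limma, adjusted p = 0.0426). The call depended on the processing: the adjusted p was 0.245 without wild-type replicate 1, 0.157 without wild-type replicate 2 and 0.0541 without overexpression replicate 2. Under normexp background correction the difference was 0.54 (limma, adjusted p = 0.481), and over all alternatives the adjusted p ran from 0.0186 to 0.481.

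Msr1 had levels of -2.33 and, on a marked spot, -1.57 in wild type, and of -0.23 and 0.20, both on marked spots, with ZEB1 overexpression. The overexpression arrays were the higher pair. The difference was 1.93 ± 0.32 (SE, n = 2 and 2), 3.81-fold (limma with marked spots kept, adjusted p = 0.0318). The second Msr1 probe, unmarked on these arrays, had levels of -2.05 and -2.55 in wild type and -1.72 and -0.63 with overexpression. Its difference was smaller, at 1.12 ± 0.40 (SE, n = 2 and 2; limma on every probe, adjusted p = 0.163). Without wild-type replicate 1 the difference of the first probe was 1.55 (limma, adjusted p = 0.148).

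Axl, with no marked spot on these arrays, had levels of 0.60 and 0.58 in wild type and 1.60 and 2.35 with ZEB1 overexpression. The groups did not overlap, but the overexpression arrays lay far apart. The difference of 1.38 ± 0.31 (SE, n = 2 and 2) missed the threshold (limma, adjusted p = 0.0703; 95% interval 0.66 to 2.11). It passed under 3 alternatives, with an adjusted p of 0.0186 without overexpression replicate 1, 0.0205 with a trended variance prior and 0.0265 with normexp.

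Cd36 had levels of -2.60 and -1.501 in wild type, and of -1.46 and, on a marked spot, -0.96 with overexpression. The difference with the marked spots kept was 0.84 ± 0.39 (SE, n = 2 and 2; limma, adjusted p = 0.259). The wild-type arrays differed from each other by more than that. Pros1 had levels of 2.12 and 1.74 in wild type, both marked, and of 2.21 (marked) and 2.50 with overexpression, a difference of 0.42 ± 0.25 (SE, n = 2 and 2; limma with marked spots kept, adjusted p = 0.368).

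The other 5 members gave small differences in this comparison. With the marked spots kept, Stab1 differed by 0.22 ± 0.27, Mfge8 by 0.05 ± 0.30, Mertk by 0.01 ± 0.27, Gas6 by -0.12 ± 0.32 and Tyro3 by -0.15 ± 0.23 (SE, n = 2 and 2; limma, adjusted p from 0.669 to 0.993). For Mertk the 95% interval ran from -0.64 to 0.65. Levels of Stab1 were 3.16 and 2.60 in wild type and 3.10 and 3.09 with overexpression, all on marked spots. Those of Mertk were 1.79 and 1.26 against 1.40 and 1.67, and those of Gas6 4.34 and 3.89 against 4.37 and 3.62. Mfge8 stood at 4.51 and 4.31 against 4.83 and 4.10, and Tyro3 at 2.77 and 2.73 against 2.75 and 2.45. On these probes the groups overlapped for each of the 5 genes. The share of all genes whose groups overlapped is not given here. A second Tyro3 probe, unmarked, had levels of -1.47 and -1.43 in wild type and -2.05 and -1.75 with overexpression, without overlap. Its difference of -0.45 ± 0.26 (SE, n = 2 and 2) missed the threshold (limma on every probe, adjusted p = 0.351).

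**Figure D4:**
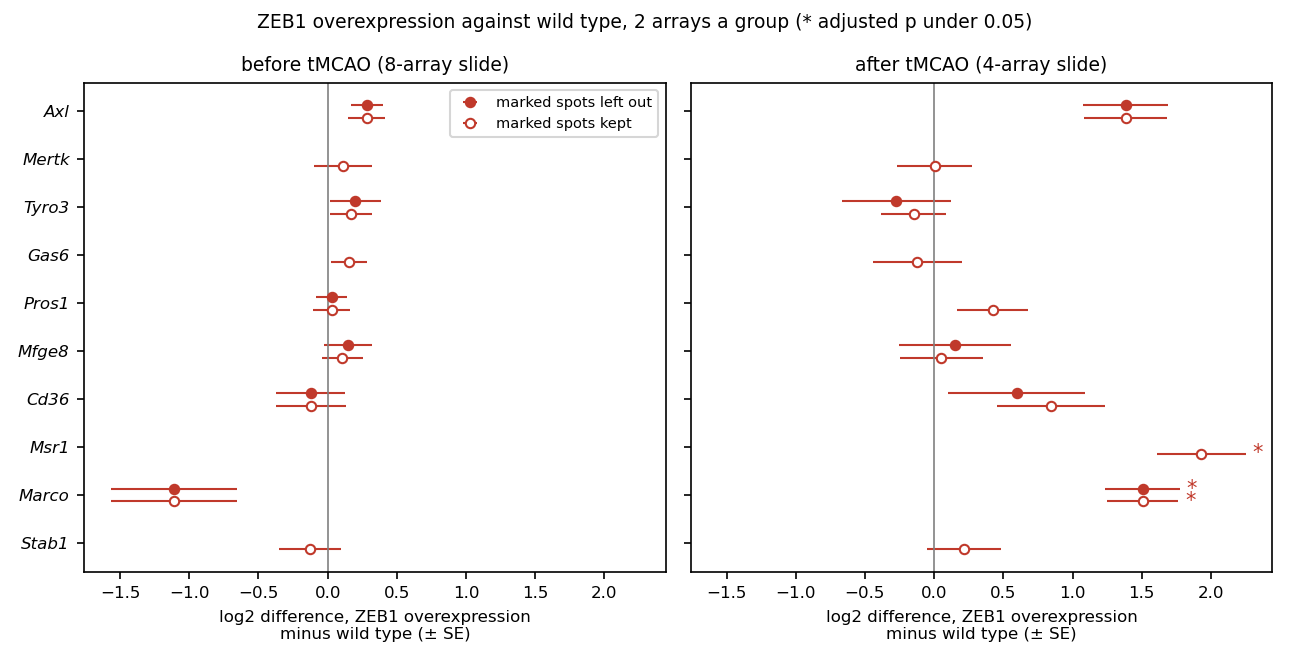
Difference in level of each gene, ZEB1 overexpression minus wild type (log2, points ± SE, 2 arrays a group), before tMCAO on the 8-array slide and after it on the 4-array slide, with the marked spots left out (filled) or kept (open); an asterisk marks an adjusted p under 0.05. Marco lies at -1.11 before tMCAO, where neither overexpression array was well above background, and at 1.51 after it. Msr1 has no point before tMCAO because neither group was well above background.

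Other genes of the pathway were counted in this comparison as well, where 1.59% of all genes were called higher in the main fit and 0.748% lower. Of 9 further receptors for apoptotic cells tested 1 was higher, Itgav, the αv chain through which Mfge8 is bound, by 1.71 ± 0.29 (SE, n = 2 and 2; limma, adjusted p = 0.0352). Of 8 further scavenger receptors 1 was higher, Olr1, the receptor of oxidised low-density lipoprotein, by 2.53 ± 0.29 (SE, n = 2 and 2; limma, adjusted p = 0.0160). Of 6 feedback genes 1 was higher, Socs1, by 2.74 ± 0.34 (SE, n = 1 and 2; limma, adjusted p = 0.0226).

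No gene passed in the remaining 3 lists, of 2 other bridging molecules, 12 engulfment genes and 4 nuclear receptor and response genes tested. The smallest p-values there belonged to Anxa5 (0.39 ± 0.25) and Edil3 (0.14 ± 0.25), to Elmo1 (0.69 ± 0.27) and Abca7 (-0.58 ± 0.25), and to Rxra (0.43 ± 0.24) and Nr1h2 (-0.13 ± 0.23), each with its SE.

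Interferon-induced markers were also higher with ZEB1 overexpression in this comparison. The 9 interferon-induced markers kept summed to 16.8 and 18.3 in wild type and 61.4 and 66.3 with ZEB1 overexpression, and 4 of the 6 tested were higher. Ifit2 was higher by 4.18 ± 0.32 (SE, n = 1 and 2), Ifi44 by 2.71 ± 0.27, Rsad2 by 1.995 ± 0.309 (n = 1 and 2) and Isg15 by 1.72 ± 0.24 (SE; limma, largest adjusted p of the 4 0.0379). Monocyte markers summed to 40.9 and 35.3 in wild type and 44.6 and 45.7 with overexpression, and 0 of 6 passed. Border macrophage markers summed to 23.5 and 21.2 against 26.8 and 23.8, and 0 of 6 passed. Endothelial and mural markers were at 19.8 and 21.6 against 10.8 and 11.3, with 0 of 8 past the threshold in the main fit and 4 of 11 lower with the marked spots kept. Of 4 neutrophil markers 1 was higher, and none passed among the 5 microglia, 7 lymphocyte, 4 astrocyte, 5 oligodendrocyte and 4 neuron markers tested. The part of these shifts, or of slide row, in the levels of Marco, Msr1 and Axl was not tested.

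The remaining 3 comparisons were between genotypes before tMCAO, and they share arrays with each other. No member passed in any of them, and neither did any other gene: 0% of 25162 genes were called between ZEB1 overexpression and wild type, 0% of 30293 between knock-down and wild type, and 0% of 25167 between overexpression and knock-down (limma). The figure was 0% of 30525 in each of the 3 with the marked spots kept. At an unadjusted p under 0.05 there were 2929, 2653 and 3715 genes in the main fits, or 11.6%, 8.76% and 14.8% of those tested. Among them were 2 of 7, 0 of 10 and 2 of 7 members tested. Other processing gave calls over all genes: 6, 1 and 6 under quantile normalization, and 518, 0 and 549 with the mean over the probes of a gene. Median centring with the marked spots left out called 14442, 0 and 17281, nearly all in 1 direction.

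Axl was the TAM receptor with the most ordered levels before tMCAO: 1.63 and 1.67 in knock-down, 1.83 and 1.90 in wild type and 2.14 and 2.15 in ZEB1 overexpression. The 3 genotypes did not overlap on this probe. On the second, dimmer probe knock-down (-5.77 and -5.90) and wild type (-5.81 and -5.24) overlapped. Overexpression and wild type differed by 0.28 ± 0.11 (SE, n = 2 and 2; limma, adjusted p = 0.425) and knock-down and wild type by -0.21 ± 0.11 (SE, n = 2 and 2; limma, adjusted p = 0.709). The ends of that order, overexpression and knock-down, differed by 0.50 ± 0.11 (SE, n = 2 and 2; limma, adjusted p = 0.211), so no step in it passed. The order was not particular to Axl. Mfge8 had levels of 2.94 and 3.07 in knock-down, 3.158 and 3.162 in wild type, and 3.225 (marked) and 3.31 in overexpression. The share of all genes with such an order is not given here.

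Pros1 had levels of 0.33 and 0.31 in wild type, 0.33 and 0.36 in ZEB1 overexpression and 0.04 and 0.07 in knock-down before tMCAO. The knock-down arrays were the lower pair, by 0.26 ± 0.11 in size against wild type (limma difference -0.26, n = 2 and 2, adjusted p = 0.598). Its second probe gave -0.31 between overexpression and wild type, where the first gave 0.03.

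Marco was near background before tMCAO. It had levels of -5.81 and -4.48 in wild type, and was not well above background on either overexpression array, which measured -6.20 and -6.31. The knock-down arrays at -5.31 and -5.47 lay between the wild-type arrays. The measured difference between overexpression and wild type was -1.11 ± 0.46 (SE, n = 2 and 2), which missed the threshold (limma, adjusted p = 0.429) and was 0.038 under median centring. Set against the lowest signal that counted as well above background on the overexpression arrays, the wild-type mean was 1.20-fold higher. Wild-type replicate 1, at -5.81, lay below the mean of that signal, -5.41, so the excess rests on replicate 2.

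The other members with a measured level lay within narrow ranges before tMCAO. On the 6 arrays Gas6 ran from 2.72 to 2.93, Mfge8 from 2.94 to 3.31, Tyro3 from 2.12 to 2.42, Mertk from 0.03 to 0.56 and Stab1 from -1.29 to -0.87. Cd36 ran from -5.37 to -4.66, with 1 overexpression array not well above background. With the marked spots kept the median difference over the 10 members was 0.11 for overexpression against wild type, and -0.13 for knock-down against wild type. Over all genes it was -0.01 and -0.07.

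Wild type before and after tMCAO lay on different slides, so the slide and the injury cannot be told apart and no test was made. The used probe was the same on both slides for 8 of the 10 members, but not for Axl and Pros1. Msr1 was at -2.33 and -1.57 after tMCAO and not well above background before it, so its difference is set apart from the others. Wild type after tMCAO minus wild type before it was 3.78 for Stab1, 2.96 for Cd36 and 1.40 for Marco. It was 1.36 for Gas6, 1.25 for Mfge8, 1.24 for Mertk and 0.53 for Tyro3. Over the 15916 probes used on both slides the median was 0.53, with 5th and 95th percentiles of -1.90 and 4.09. All 7 of these members lay inside that range. The measured difference of Msr1, 5.72, lay above it, but rests on readings not well above background before tMCAO. In the knock-down cells, on a single slide, Stab1 and Cd36 differed by 2.62 and 1.96, while Gas6 and Mfge8 differed by 0.08 and -0.38.

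The 3 members with the widest range of group means on the 8-array slide were Msr1, Stab1 and Cd36, and for each the genes with the most alike levels over the 8 arrays were found. Likeness was the mean absolute difference of levels centred on their mean, with all spots kept. For Msr1 they were Arg1, the arginase of macrophages, at 0.50 and the matrix protease Mmp3 at 0.55. For Stab1 they were Ecscr, an endothelial surface protein, at 0.08 and the small GTPase Rab32 at 0.10. For Cd36 they were Igsf6 and 1810034E14Rik, each at 0.19. Msr1 was not well above background on 6 of the 8 arrays, so its values compare readings near background. All of these values describe 8 arrays, with no test.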

How the data were processed

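The 12 arrays and their groups were taken from the labels. The deposited scanner files give each spot's intensity on a linear scale, background-subtracted and detrended by Agilent Feature Extraction 11.5.1.1 per the file headers, while the submitters' processing notes name version 9.1. Other values, yes or no marks per spot (well above background, non-uniform, outlier), come from the same software per the file headers. The value tables the authors deposited hold log2 values of the same arrays and served as an alternative; for knock-down after tMCAO, the 2 columns fitted the scanner values best with their replicate numbers exchanged.

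From the intensities, log2 of the processed signal minus the 75th percentile of the array was computed (Python 3.11.15, pandas 2.3.3). Marked spots were left out, a probe was kept where all arrays of 1 group or more had it well above background, and the brightest kept probe stood for a gene. Probes were named through RefSeq accessions. limma 3.58.1 (R 4.3.3) fitted all groups of a slide together (lmFit, eBayes, two-sided), and the fit was tested on simulated data. Named were all 10 members, every listed gene past the threshold (where none of a list passed, at most the 2 with the smallest p), Zeb1, and the 2 genes most alike to each of 3 members. Genes of the cell type and interferon lists are named as examples. A listed gene that passed with the marked spots kept is not reported here. The members and lists were chosen with earlier results of these data known. Saturated spots numbered 3, on 1 array, and the number of arrays limits the precision. Samples with the same replicate number did not deviate together (correlations from -0.19 to 0.26), so the numbers were not taken to pair samples.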

Additional observations from a re-analysis of the deposited data

Results flagged for a closer look

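The measured levels of Marco lay on opposite sides in ZEB1 overexpression and wild type before and after tMCAO. Before tMCAO both overexpression arrays lay below both wild-type arrays, with a difference of -1.11. However, neither overexpression array was well above background, and the difference missed the threshold (limma, adjusted p = 0.429). The wild-type mean was 1.20-fold above the lowest signal that counted as well above background on the overexpression arrays, an excess that rests on replicate 2. After tMCAO both overexpression arrays lay above both wild-type arrays, with a difference of 1.51. The 2 differences come from different slides, and the difference between them was not tested.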

How the results depend on the processing

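Between ZEB1 overexpression and wild type after tMCAO, 1 member was called. The count was 2 with the marked spots kept, also with median centring or every probe on its own, 2 in the authors' value table and 2 with a trended variance prior. It was 0 under quantile normalization, median centring, no filter on dim probes, and the mean over the probes of a gene; leaving out 1 array gave 0 to 3. In knock-down cells after against before tMCAO 3 were called. The count was 5 with the marked spots kept under median centring or with every probe on its own, and leaving out 1 array gave 1 to 4; a lone array was assumed to vary like the other groups.

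Before tMCAO 0 members were called, but median centring with the marked spots left out called 5 between overexpression and wild type and 5 between overexpression and knock-down; with the marked spots kept it called 0 in each. Leaving out the marked spots moved the array median from -1.96 to -3.46 on overexpression array 1 before tMCAO and from -1.90 to -1.99 on knock-down array 1, so this centring shifts whole arrays. It turned Marco to 0.038 (against wild type) and 0.28 (against knock-down), Tyro3 after against before tMCAO to 0.32 and Mfge8 after tMCAO to -0.039. Mfge8 was also -0.21 with the replicate block, in which 2 members were called in knock-down cells and Axl (0.48) was lost. The block changed no other call of a member.

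Further values that changed sign were all short of the threshold. Gas6 in knock-down cells was -0.027 under median centring with the marked spots kept. Marco was -0.34 in knock-down cells and 0.046 between knock-down and wild type under quantile normalization. Pros1 between overexpression and wild type before tMCAO was -0.31 by its second probe and -0.14 by the mean of its probes, and -0.013 by the second probe against knock-down. Leaving out 1 array at a time gave for Mertk -0.26 to 0.27, Gas6 -0.50 to 0.25, Mfge8 -0.21 to 0.51 and Stab1 -0.064 to 0.49 (overexpression against wild type after tMCAO), and for Marco -0.28 to 0.50 (knock-down cells) and -0.91 to 0.42 (knock-down against wild type). The cause was not tested.

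Over all genes, 61.2% of the calls in knock-down cells were higher in the main fit, 78.4% with normexp, 44.8% under quantile normalization and 51.1% under median centring with the marked spots kept; median centring with the marks left out gave 99.2%. Between overexpression and wild type after tMCAO the share was 68.0%, and 39.8% under median centring. The median over all genes was 0.04 in knock-down cells, 0.21 with normexp, 1.05 under median centring and 0.39 with no filter on dim probes. Between overexpression and wild type after tMCAO it was -0.11, -0.28 with normexp and -0.47 under median centring. Calls over all genes numbered 4460 in knock-down cells, 825 to 3789 without 1 array and 2310 with only the groups compared; they numbered 515 after tMCAO and 39 to 1124 without 1 array, and 0 without a filter or with the mean of probes. The planned normexp on mean signals was not run because the scanner tables used hold median signals, and the version on medians was chosen after seeing the data, as were the settings that combine marked spots kept with another change. Signal near background limits Marco, Msr1 and Cd36 before tMCAO.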
